A study of Mus musculus with 12 samples.

Results

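The kidney's answer to angiotensin II (ANG II) was compared between mice with no AT1A receptor and wild-type mice while both received the peptide. Kidneys of 3 AGTR1A-KO mice infused with ANG II (KO ANG II) were set against kidneys of 3 wild-type mice infused alike (WT ANG II), which are 6 of the 12 arrays of the series, chosen by their titles. ANG II was given for 2 days at 1 ug/kg/min, and both groups were fed what the labels call an NS diet. The other 6 arrays, 3 of KO and 3 of wild-type kidneys on that diet with no ANG II (KO baseline and WT baseline), entered the fit and are used for the genotype difference without infusion. All mice were males of 2.5 months from an F1 cross of C57BL6 and 129/SvEv, 1 mouse per array, and total RNA of the whole snap-frozen kidney was hybridised to Affymetrix Mouse Genome 430 2.0 arrays. The KO allele is constitutive, so the receptor is missing in the vessels, the adrenal gland and every other organ of these mice as well as in the kidney. Deposited values are ratios of an array to the probe set's median over the 12 arrays. Such ratios keep no level, so neither the kidney identity of a sample nor the amount of one gene against another can be read from them, and the 3 arrays per group limit the precision.

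Angiotensin II is made from angiotensinogen by renin and angiotensin-converting enzyme, and it acts on AT1 and AT2 receptors. In the mouse the AT1 receptor exists as AT1A and AT1B, encoded by Agtr1a and Agtr1b, and AT1A is the main one in kidney, where it is found in vessels, glomeruli and tubules. Through AT1A the peptide constricts renal vessels, raises sodium uptake by the tubule and drives aldosterone release from the adrenal cortex, and mice that lack it have low blood pressure and little pressor response to the peptide. The comparison therefore asks what the kidney transcripts of the same infusion look like with and without the main receptor.

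The targeted gene did not separate the infused genotypes. Agtr1a ratios were 0.983, 0.917 and 1.05 in KO ANG II kidneys, against 0.957, 1.00 and 0.997 in WT ANG II kidneys. The groups overlapped, and the log2 difference of KO minus WT was -0.00 ± 0.08 (SE, n = 3 per group, 95% interval -0.17 to 0.17, limma adjusted p = 0.98). In uninfused kidneys the ratios of the same probe set were 1.04, 0.923 and 0.965 in KO and 1.37, 1.40 and 1.36 in WT, and there the log2 difference was -0.49 ± 0.08 (adjusted p = 0.00306). The labels do not say whether the allele removes the bases this probe set reads, so Agtr1a does not check the genotype labels of the infused arrays. Sugct and Gpx6, described further on, separated all KO from all WT arrays in both states at the probe sets used. Both were found from these same data, so they are no independent check of the labels. Agtr1b, the AT1B receptor, had a log2 difference of -0.20 ± 0.11 (95% interval -0.44 to 0.04, adjusted p = 0.222), and Agtr2, the AT2 receptor, one of 0.12 ± 0.11 (95% interval -0.11 to 0.35, adjusted p = 0.438).

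Across the array the infused genotypes differed at 8934 of 45037 probe sets (19.8%) at an adjusted p under 0.05, of which 5254 (11.7%) were higher and 3680 (8.17%) lower in KO. With 1 probe set per gene, 3927 of 18193 genes (21.6%) were called, 2495 higher (13.7%) and 1432 lower (7.87%), and these shares are the background against which every gene list below is read. The infused KO and WT values did not overlap for 6792 of all 18193 genes (37.3%), and for 3785 of the 3927 called ones. A lack of overlap given for a gene below is read against these shares. Most differences were small. A difference of at least 2-fold was called for 199 genes (1.09%), 148 of them higher (0.813%) and 51 lower in KO (0.28%), and the median log2 difference of all genes was -0.02. Without infusion 2936 probe sets (6.52%) and 1194 genes (6.56%) separated the genotypes, 822 of the genes higher (4.52%) and 372 lower (2.04%) in KO. The difference between both genotype differences, tested in the same fit, was called for 4404 probe sets (9.78%) and 1864 genes (10.2%), 599 of the genes in the negative direction (3.29%).

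How many genes were called depended on the arrays and the scaling. Leaving out KO ANG II replicate 1 gave 5021 called probe sets, KO ANG II replicate 3 gave 5103 and WT ANG II replicate 3 gave 5574, while leaving out WT ANG II replicate 1 gave 10743. A fit to the 6 infused arrays gave 4991. Quantile normalization of the deposited values gave 4063, and it moved the share of called probe sets that were higher in KO to 70.9%, against 58.8% as deposited. That share was 67% in the fit to the 6 infused arrays. With 1 infused array left out it ran from 55.2% (WT ANG II replicate 1) to 68% (KO ANG II replicate 1). The probe sets of 2-fold or more numbered 430 (0.955%), 329 higher (0.731%) and 101 lower (0.224%) in KO, and were 396 to 503 when any 1 infused array was left out. Of 58 counts of 1 to 4 called members given for a gene list, 35 moved by over 1.5 times when 1 infused array was left out, as did 9 of 21 counts of 5 or more. For 64 named genes the array holds other probe sets, 110 in all, of which 81 were called in the direction given, 2 in the opposite one and 27, in 20 genes, were not called. The infused groups also differed in array properties. Over all probe sets the SD of an array's log2 ratios was 0.165 to 0.196 on KO ANG II arrays, against 0.268 to 0.342 on WT ANG II arrays. The 3' minus 5' difference of the Actb control probe sets, a relative sign of RNA quality, was 0.0016 to 0.034 on the log2 scale on KO ANG II arrays, against 0.075 to 0.150 on WT ANG II arrays. That of Gapdh was -0.026 to 0.020 against -0.060 to 0.058 and overlapped. The Actb values move with every infused difference given below, and their part in them was not tested.

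For 12 of the 15 genes with the largest falls in KO under ANG II, the infused WT arrays lay above all 9 other arrays. The 15 were chosen as the largest called falls whose infused groups did not overlap, so part of this separation follows from the choice. How many of all genes had infused WT arrays beyond all 9 others was not counted. Cyp4a14, a fatty acid hydroxylase of the cytochrome P450 family, had ratios of 1.19, 0.788 and 1.92 in KO ANG II kidneys, against 21.4, 32.1 and 24.97 in WT ANG II kidneys. Every WT ANG II array lay far above every KO ANG II array, a 21.2-fold difference (log2 -4.41 ± 0.35, adjusted p = 3.63e-06), whereas uninfused kidneys had 1.15, 0.848 and 0.448 in KO and 0.762, 0.409 and 0.618 in WT. Igfbp1, a secreted protein that binds insulin-like growth factors, had 0.437, 0.265 and 0.365 in KO ANG II kidneys, against 6.07, 5.01 and 2.55 in WT ANG II kidneys. The groups did not overlap and differed 12.2-fold (log2 -3.61 ± 0.26, adjusted p = 1.52e-06). Hmox1, heme oxygenase, which degrades heme, had 0.856, 0.822 and 0.944 in KO ANG II kidneys, against 5.26, 3.17 and 6.65 in WT ANG II kidneys, and the groups again stood apart (log2 -2.46 ± 0.20, adjusted p = 4.33e-06). Serpina6, the carrier of glucocorticoids in plasma, had 1.27, 0.957 and 0.968 in KO ANG II kidneys, against 12.4, 3.75 and 13.3 in WT ANG II kidneys. WT ANG II replicate 2 was the lowest of its group and still above every KO ANG II array (log2 -3.01 ± 0.34, adjusted p = 6.36e-05). 2 enzymes of amino acid breakdown were in this set, Kynu of the tryptophan pathway (log2 -2.54 ± 0.20) and Hpd of the tyrosine pathway (-2.38 ± 0.25). The others of the 15 largest falls among genes whose groups did not overlap were Sugct (-3.56 ± 0.14), Gpx6 (-3.04 ± 0.18), Depp1 (-2.65 ± 0.40), 2410006H16Rik (-1.78 ± 0.25), the glutathione transferase Gsta2 (-1.72 ± 0.12), the drug efflux pump Abcb1b (-1.64 ± 0.18), the copper-carrying ferroxidase Cp (-1.59 ± 0.19), the pyruvate dehydrogenase kinase Pdk4 (-1.57 ± 0.33) and the cholesterol exporter Abca1 (-1.55 ± 0.12). Sugct had a second probe set that was called higher in KO, by 0.63. The second probe sets of Kynu (-0.34) and Abcb1b (-0.44) were called with smaller differences, and 2 of the 7 other probe sets of Cp were not called (-0.26 and -0.28).

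The genes highest in KO relative to WT included several of solute transport and metabolism, and for 13 of the 15 largest rises the infused WT arrays lay below all 9 other arrays. The same rule chose these 15, so part of this separation too follows from the choice. Car3, a carbonic anhydrase, had ratios of 1.40, 1.35 and 1.25 in KO ANG II kidneys, against 0.121, 0.212 and 0.163 in WT ANG II kidneys. All KO ANG II arrays were above 1 and all WT ANG II arrays under 0.25, an 8.27-fold difference (log2 3.05 ± 0.17, adjusted p = 2.66e-07). Acsm3, a medium-chain acyl-CoA synthetase, had 1.37, 1.30 and 1.16 in KO ANG II kidneys, against 0.185, 0.284 and 0.121 in WT ANG II kidneys (log2 2.78 ± 0.21, adjusted p = 2.44e-06). Odc1, ornithine decarboxylase, the entry step of polyamine synthesis, had 2.70, 2.35 and 2.52 in KO ANG II kidneys, against 0.416, 0.403 and 0.369 in WT ANG II kidneys, with 0.837, 0.925 and 1.36 in KO baseline and 1.05, 0.951 and 1.20 in WT baseline kidneys. Infused KO arrays were thus above all uninfused arrays for Odc1 and infused WT arrays under them, and the infused log2 difference was 2.67 ± 0.15 (adjusted p = 2.45e-07). The others of the 15 largest rises were 3110040M04Rik (3.05 ± 0.30), Rnf180 (2.62 ± 0.32), the carboxylesterase Ces1g (2.58 ± 0.26), the transporters Slco1a1, Slc51a, Slc22a7 and Slc7a13 given below, the lysophospholipid carrier Mfsd2a (2.54 ± 0.24), the antibody genes Jchain and Igha, the unconventional myosin Myo5a (2.23 ± 0.21) and Rnf24 (2.21 ± 0.21). The other probe sets of Car3 differed by 0.47, 0.66 and 2.50 and those of Odc1 by 1.34 and 2.06, all called. Of the 2 probe sets of Rnf180 the second was called lower in KO, by a log2 of -0.34. When variances were moderated with a trend on the mean ratio, the calls of Car3 (adjusted p = 0.0615), Acsm3 (0.0751) and Slc7a13 (0.0702) ended, as did those of Sugct (0.834) and Gpx6 (0.12).

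**Figure D1:**
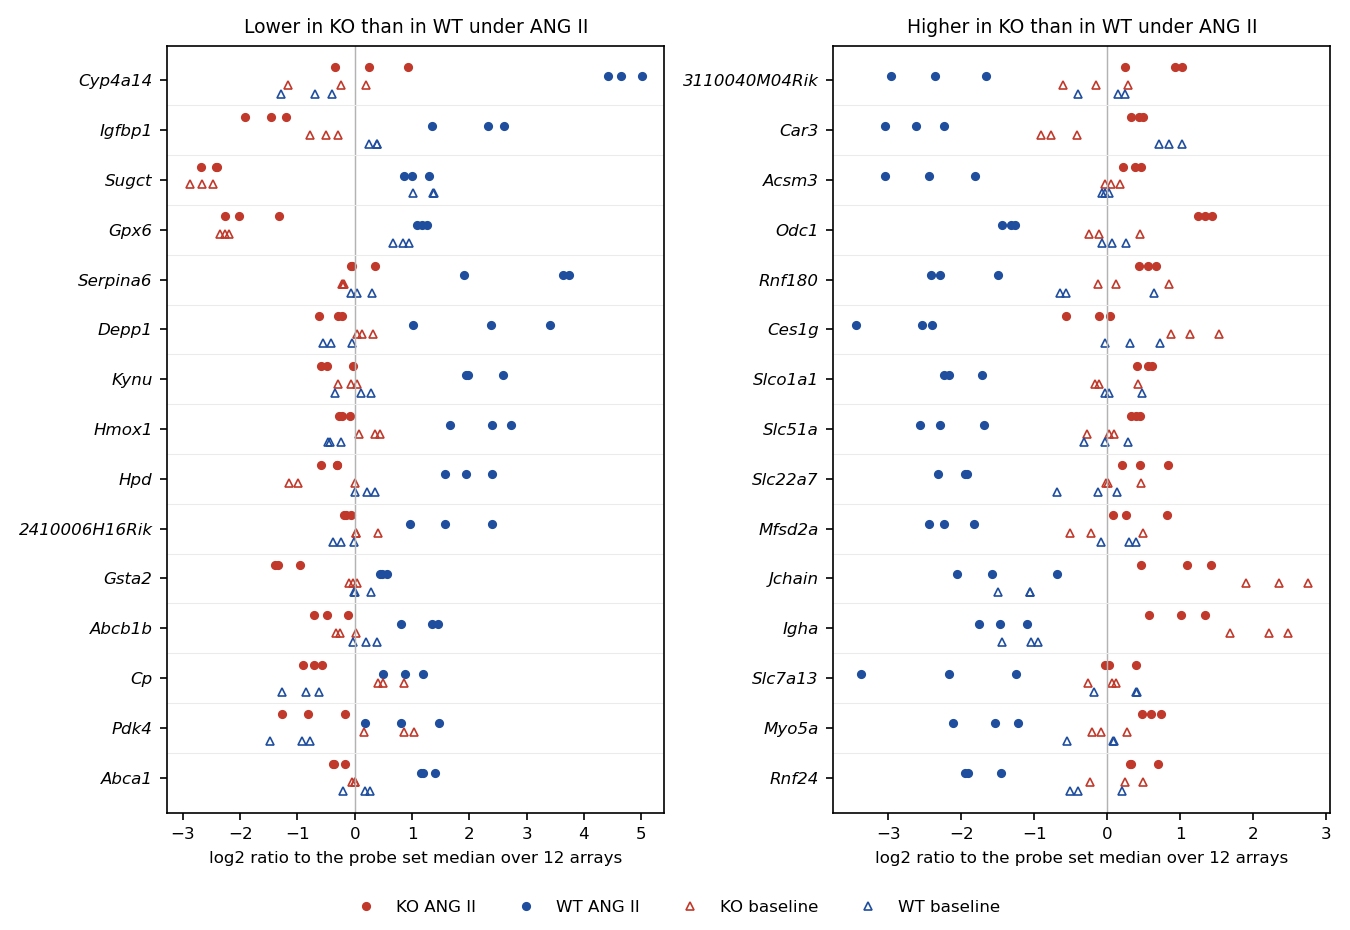
Each row is a gene and each point 1 array, with the log2 ratio to the probe set's median over the 12 arrays on the x axis, filled circles for infused kidneys, open triangles for uninfused ones, red for KO and blue for WT. On the left, the 15 genes with the largest falls in KO under ANG II, led by Cyp4a14, and on the right the 15 largest rises, led by 3110040M04Rik and Car3, where the infused WT circles lie beyond all 9 other points for 12 and 13 genes. All were chosen among called genes whose infused groups did not overlap.

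Among 16 measured components of the renin-angiotensin system, 6 were higher and 2 lower in KO under ANG II, with a median log2 difference of 0.12. Ace, which makes ANG II, had ratios of 1.25, 1.34 and 1.07 in KO ANG II kidneys, against 0.598, 0.663 and 0.620 in WT ANG II kidneys. No KO ANG II array came near the WT ANG II arrays (log2 0.96 ± 0.09, adjusted p = 1.66e-05), and the uninfused genotypes differed by -0.01 ± 0.09. The peptidases Anpep (0.77 ± 0.08) and Nln (0.77 ± 0.11), which cut angiotensin peptides, were higher too, as was Mas1, which encodes a receptor of an angiotensin fragment (0.36 ± 0.10). Agt, angiotensinogen, the precursor of the peptide, went the other way, with 0.984, 0.981 and 1.01 in KO ANG II kidneys, against 1.37, 1.43 and 1.45 in WT ANG II kidneys (log2 -0.51 ± 0.14, adjusted p = 0.0193). The call of Agt ended without KO ANG II replicate 1 (adjusted p = 0.0561), WT ANG II replicate 2 (0.052) or WT ANG II replicate 3 (0.0585). With KO ANG II replicate 1 or KO ANG II replicate 3 left out, 3 members were called higher, as with quantile normalization, in place of 6. The count of lower members was 0 without KO ANG II replicate 1 or WT ANG II replicate 3 and 1 without any 1 of KO ANG II replicate 2, KO ANG II replicate 3 and WT ANG II replicate 2. The call of Mas1 ended without KO ANG II replicate 1 (adjusted p = 0.092), KO ANG II replicate 3 (0.0735) or WT ANG II replicate 2 (0.0718).

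The proximal tubule, the segment that takes back most of the filtered solutes, had the largest share of called markers among the nephron segments listed. Of 29 measured markers, 12 were higher and 4 lower in KO under ANG II (41.4% and 13.8%), with a median log2 difference of 0.22. In whole-kidney RNA fewer cells of a type and less RNA per cell cannot be told apart. Slc7a13, an amino acid transporter of the late proximal tubule, had 1.02, 1.31 and 0.982 in KO ANG II kidneys, against 0.0965, 0.420 and 0.223 in WT ANG II kidneys, and the widest spread was within WT (log2 2.40 ± 0.37, adjusted p = 0.000656). Slc17a3, a urate and phosphate carrier, differed by 1.20 ± 0.11, the sodium-glucose carrier Slc5a2 by 0.66 ± 0.10, Gatm, which makes the precursor of creatine, by 0.91 ± 0.14, and the phosphate carrier Slc34a3 by 0.80 ± 0.11. The members that were lower in KO included the sulfate carrier Slc13a1 (-1.27 ± 0.17), the water channel Aqp1 (-0.54 ± 0.08) and the endocytic receptor Cubn (-0.49 ± 0.10). Slc13a1 had 1.01, 1.05 and 0.958 in KO ANG II kidneys, against 2.25, 2.93 and 2.18 in WT ANG II kidneys, so the markers of this segment did not all lie on one side.

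Transporters of organic anions and cations, through which the proximal tubule secretes drugs, bile acids and other metabolites, had 12 of 25 measured members higher (48%) and 4 lower in KO, with a median of 0.33. Slco1a1, which takes up organic anions, had 1.47, 1.53 and 1.33 in KO ANG II kidneys, against 0.223, 0.306 and 0.212 in WT ANG II kidneys (log2 2.57 ± 0.17, adjusted p = 1.13e-06). Slc51a, a subunit of a bile acid and steroid exporter, had 1.25, 1.31 and 1.36 in KO ANG II kidneys, against 0.204, 0.310 and 0.170 in WT ANG II kidneys (log2 2.56 ± 0.19, adjusted p = 2.3e-06). Slc22a7, an organic anion transporter, had 1.78, 1.37 and 1.15 in KO ANG II kidneys, against 0.264, 0.260 and 0.201 in WT ANG II kidneys (log2 2.56 ± 0.21, adjusted p = 4.64e-06). In each of these 3 genes the groups were separated by a wide gap, and uninfused genotypes differed by -0.12 ± 0.17, -0.04 ± 0.19 and 0.38 ± 0.21, none of them called. Slc22a30 (2.11 ± 0.20), Slc22a2 (1.00 ± 0.10) and Slc22a6 (0.77 ± 0.11) were higher too, the last 2 being uptake transporters of the basolateral membrane. The members lower in KO included the ATP-driven efflux pumps Abcb1a (-1.37 ± 0.16) and Abcc4 (-0.79 ± 0.12). The count of lower members was 2 in place of 4 when KO ANG II replicate 1, KO ANG II replicate 3 or WT ANG II replicate 2 was left out, and with quantile normalization.

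Genes of lipid metabolism were split. Of 25 measured targets of the fatty acid receptor PPAR alpha and enzymes of fatty acid oxidation, 3 were higher and 8 lower in KO, with a median of -0.11. Next to Cyp4a14 the lower members included Pdk4, the acyl-CoA thioesterase Acot2 (-0.39 ± 0.09), the receptor Ppara itself (-0.58 ± 0.14) and the pantetheinase Vnn1 (-0.37 ± 0.08). Higher in KO were Cyp4a12a, a fatty acid hydroxylase of male mouse kidney, and the fatty acid carrier Cd36 (1.24 ± 0.16), among others. Cyp4a12a had 1.38, 1.46 and 1.26 in KO ANG II kidneys, against 0.423, 0.660 and 0.510 in WT ANG II kidneys (log2 1.39 ± 0.15, adjusted p = 4.4e-05), so 2 hydroxylases of the Cyp4a family lay on opposite sides. The count of lower members was 5 without WT ANG II replicate 3, where the call of Ppara ended (adjusted p = 0.0568), and in the fit to the 6 infused arrays. The other probe sets of Acot2 (-0.24) and Vnn1 (-0.15) were not called. In cholesterol synthesis 7 of 19 measured genes were higher and 1 lower, with a median of 0.25. Idi1, which isomerises the isoprene units, had 1.61, 1.04 and 1.17 in KO ANG II kidneys, against 0.355, 0.430 and 0.309 in WT ANG II kidneys, and the groups did not overlap (log2 1.79 ± 0.15, adjusted p = 7.48e-06). Dhcr7 (0.81 ± 0.11) and Mvd (0.77 ± 0.09), which act late and early in the pathway, were also higher. The count of lower genes was 0 without KO ANG II replicate 1, KO ANG II replicate 3 or WT ANG II replicate 3.

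Chaperones made up the list with the largest share of members higher in KO. Of 27 measured genes of the heat shock and endoplasmic reticulum stress responses, 16 were higher (59.3%) and 1 lower, with a median log2 difference of 0.38. In uninfused kidneys 8 of them were higher and 0 lower in KO, with a median of 0.24, against 4.52% higher and 2.04% lower of all genes. Hspa8, the constitutive cytosolic HSP70, had 1.16, 0.785 and 0.656 in KO ANG II kidneys, against 0.327, 0.360 and 0.325 in WT ANG II kidneys (log2 1.32 ± 0.20, adjusted p = 0.000643). Its uninfused values were 1.59, 2.29 and 1.90 in KO and 1.30, 0.842 and 1.25 in WT. For Hspa8 both infused groups were thus under the KO baseline arrays, the WT ANG II arrays furthest. 3 other probe sets of this gene differed by 0.10 to 0.19 and were not called, and with quantile normalization the difference was 0.75 and its call ended (adjusted p = 0.0562). Hsph1, a partner of HSP70, differed by 1.24 ± 0.17, Dnaja1, a co-chaperone, by 1.11 ± 0.11, Hsp90aa1, an HSP90, by 0.96 ± 0.14, and Dnajb1 by 0.92 ± 0.14. The mitochondrial chaperonins Hspe1 (0.78 ± 0.10) and Hspd1 (0.43 ± 0.09) were higher as well. In the endoplasmic reticulum, Creld2 had 1.96, 1.11 and 1.93 in KO ANG II kidneys, against 0.833, 0.633 and 0.611 in WT ANG II kidneys (log2 1.24 ± 0.19, adjusted p = 0.000723), with KO ANG II replicate 2 the lowest of its group and above all WT ANG II arrays. Hspa5, the main HSP70 of this compartment, had 1.63, 1.04 and 1.42 in KO ANG II kidneys, against 0.908, 0.786 and 0.852 in WT ANG II kidneys (log2 0.66 ± 0.14, adjusted p = 0.00553). Pdia6, which forms disulfide bonds, differed by 0.72 ± 0.11, Pdia3 by 0.38 ± 0.08, Hsp90b1 by 0.40 ± 0.13 and the lectin chaperone Calr by 0.31 ± 0.08. Probe sets not called were 1 of the 2 others of Hspa5 (-0.22), the second ones of Pdia3 (0.24) and Pdia6 (0.17), and 2 of the 4 others of Hsp90aa1 (0.10 and 0.11). The member lower in KO was Chac1, which cleaves glutathione (-1.24 ± 0.30). Quantile normalization left 9 members higher in place of 16. The calls of Hsp90b1 and Calr ended without KO ANG II replicate 1 (adjusted p = 0.167 and 0.0674), KO ANG II replicate 3 (0.111 and 0.0584) or WT ANG II replicate 3 (0.164 and 0.0593), and that of Hsp90b1 also without WT ANG II replicate 2 (0.055).

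**Figure D2:**
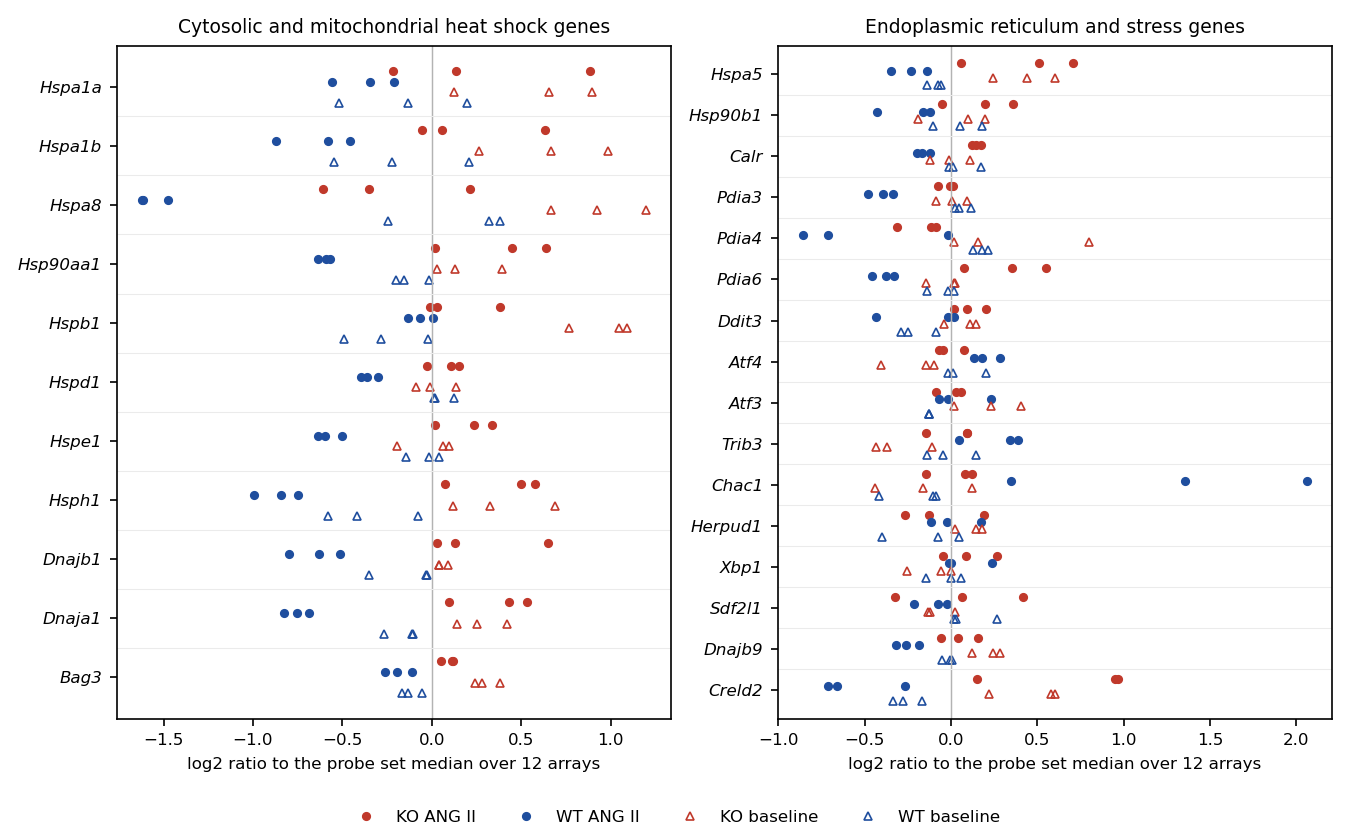
Each row is a measured gene of the heat shock and endoplasmic reticulum stress list and each point 1 array, with the log2 ratio to the probe set's median over the 12 arrays on the x axis, red for KO and blue for WT, filled circles for infused and open triangles for uninfused kidneys. The infused WT circles lie left of the infused KO circles for the 16 genes called higher in KO, led by Hspa8, and right of them for Chac1.

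Promoters of these chaperones are shown because each arm of the list has a textbook promoter motif. The endoplasmic reticulum stress element, CCAAT and CCACG with any 9 bases between them, searched on both strands in the 250 bases before and 50 after each gene start of RefSeq on GRCm38.p6, was in 39 of 32851 promoters (0.119%). It was found in 5 of the 16 endoplasmic reticulum members of the list, and these 5 were among the 7 of them that were called higher. For both motifs a member counts if any of its promoters matches. The shares over all promoters count each promoter, and those belong to 27025 genes, so the units differ. The heat shock element, GAA, TTC and GAA in a row with any 2 bases between neighbours, searched alike, was in 198 promoters (0.603%) and in 3 of the 9 heat shock members that had a promoter entry, namely Hspd1, Hspe1 and Hsph1. The first 2 are read in opposite directions from 1 shared stretch, and in Hsph1 the match lies past the gene start. These matches are a description and no test of binding, and no match of one motif overlaps a match of the other. In the shared stretch of Hspd1 and Hspe1, 2 matches of the heat shock element on opposite strands overlap, and the capitals cover both. Each line gives the gene's own strand 5' to 3' with the matched bases, in whichever orientation, in capitals.
Hspa5: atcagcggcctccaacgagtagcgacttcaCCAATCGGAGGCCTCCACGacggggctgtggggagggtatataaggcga
Hsp90b1: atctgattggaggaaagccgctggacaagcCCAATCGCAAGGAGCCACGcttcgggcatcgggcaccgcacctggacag
Calr: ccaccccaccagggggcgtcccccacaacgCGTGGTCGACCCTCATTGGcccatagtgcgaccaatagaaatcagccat
Pdia6: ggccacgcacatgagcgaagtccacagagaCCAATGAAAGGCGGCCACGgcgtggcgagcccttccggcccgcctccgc
Creld2: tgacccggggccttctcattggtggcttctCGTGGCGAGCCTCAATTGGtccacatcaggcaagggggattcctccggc
Hspe1: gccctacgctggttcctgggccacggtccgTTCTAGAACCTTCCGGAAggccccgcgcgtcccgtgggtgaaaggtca
The Hspa5 stretch is chr2:34771995-34772073 on the plus strand, that of Hsp90b1 is chr10:86705608-86705686 on the minus strand, that of Calr is chr8:84847045-84847123 on the minus strand, that of Pdia6 is chr12:17266461-17266539 on the plus strand and that of Creld2 is chr15:88819490-88819568 on the plus strand. The Hspe1 stretch is chr1:55088029-55088106 on the plus strand, upstream of Hspd1 on the other strand. Hsp90b1 holds a second match of the element nearer to its start.

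The list of the glucocorticoid carrier, receptor and target genes had the largest share lower in KO under ANG II. Under ANG II 8 of 20 measured genes were lower (40%) and 2 higher, with a median of -0.41. In uninfused kidneys 8 were higher and 0 lower in KO, with a median of 0.49, and the difference between both genotype differences was called negative for 11. Besides Serpina6 and Depp1 the lower members were the cell cycle inhibitor Cdkn1a (-0.98 ± 0.21), the siderophore binder Lcn2 (-0.89 ± 0.26), the kinase Sgk1, the phosphatase Dusp1 (-0.68 ± 0.11), the sulfotransferase Sult1a1 (-0.67 ± 0.13) and the clock gene Per1 (-0.56 ± 0.18). Sgk1, which promotes sodium uptake and also answers to aldosterone, had 0.795, 0.666 and 0.767 in KO ANG II kidneys, against 1.29, 1.43 and 1.27 in WT ANG II kidneys (log2 -0.85 ± 0.11, adjusted p = 0.000176), and the groups did not overlap. The 2 higher members were the receptor Nr3c1 (0.59 ± 0.09) and Hsd11b1, which regenerates active glucocorticoid (0.81 ± 0.16). Of 5 other probe sets of Nr3c1, 2 were not called (-0.02 and 0.22). Per1 was not called without any 1 infused array other than KO ANG II replicate 2 (adjusted p = 0.0505 to 0.186), and Lcn2 not without KO ANG II replicate 3 (0.11) or any 1 WT ANG II array (0.0501 to 0.088). Among 19 genes of the distal nephron that answer to aldosterone, 3 were lower, namely Sgk1, Per1 and Scnn1a, a subunit of the epithelial sodium channel (-0.60 ± 0.10), and 0 were higher.

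Tubular injury genes had 7 of 23 measured members lower (30.4%) and 3 higher in KO under ANG II, with a median of -0.18. In uninfused kidneys 10 were higher and 0 lower in KO, with a median of 0.31. The difference between both genotype differences was called negative for 12 of them. All 3 fibrinogen chains were among those lower under ANG II. Fga had 0.834, 0.737 and 0.831 in KO ANG II kidneys, against 3.21, 1.86 and 2.14 in WT ANG II kidneys (log2 -1.55 ± 0.16, adjusted p = 2.62e-05), while Fgg differed by -1.21 ± 0.19 and Fgb by -0.78 ± 0.16. Fibrinogen is chiefly a liver product, and of 12 measured hepatocyte markers 3 were lower, Fga, Fgb and Serpina1b (-0.99 ± 0.20), and 1 higher, Ttr (0.88 ± 0.15). The median log2 ratio of the hepatocyte markers was -0.03 to 0.04 on KO ANG II arrays, against 0.09 to 0.28 on WT ANG II arrays, and its part in these differences was not tested. This shift was not particular to hepatocyte markers. Adrenal cortex markers had -0.01 to 0.03 against 0.08 to 0.30, and neutrophil markers -0.01 to 0.13 against 0.16 to 0.32. Macrophage markers went the other way, with -0.14 to 0.30 against -0.60 to -0.37. The lower members also held Hmox1, Cdkn1a and Lcn2. The higher ones held Vcam1, an adhesion molecule (0.71 ± 0.14, with 1.498, called, and -0.01, not called, at its other probe sets), and their count was 1 in place of 3 without KO ANG II replicate 1, KO ANG II replicate 3 or WT ANG II replicate 3.

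Genes of iron handling lay on both sides. Tfrc, the transferrin receptor, had 1.51, 0.797 and 1.18 in KO ANG II kidneys, against 0.443, 0.447 and 0.451 in WT ANG II kidneys (log2 1.33 ± 0.17, adjusted p = 0.000184). The iron regulatory protein Aco1 (0.40 ± 0.09) and the metalloreductase Steap1 (0.82 ± 0.14) were higher in KO, whereas Hmox1, Cp and Lcn2 were lower. No other probe set of Aco1 (-0.03 and 0.14) or Steap1 (0.16) was called, and over the mean of its probe sets Aco1 was not called (0.17, adjusted p = 0.061). In all 4 of 20 measured members were higher and 3 lower, and 2 were higher with quantile normalization. Of 21 targets of the antioxidant factor NRF2, 4 were lower, led by Hmox1 and Gsta2, and 3 higher (1 without KO ANG II replicate 2), so no single direction held. Gsta2 had 0.380, 0.396 and 0.514 in KO ANG II kidneys, against 1.49, 1.35 and 1.39 in WT ANG II kidneys, with 0.975, 1.03 and 0.931 in KO and 0.993, 1.01 and 1.22 in WT at baseline. For this gene the infused KO arrays were the low ones. Of 16 measured NADPH oxidase and reactive oxygen genes 2 were higher (12.5%) and 2 lower, a share of higher members near the 13.7% of all genes. The kidney oxidase Nox4 was lower (-0.70 ± 0.14) and Cybb, the subunit of phagocytes, was higher (1.20 ± 0.18), though 1 of its 2 other probe sets was not called (0.30). The higher count was 1 without KO ANG II replicate 1, KO ANG II replicate 3 or WT ANG II replicate 3, and the lower count 1 without KO ANG II replicate 3. In arginine and polyamine metabolism 6 of 16 members were higher in KO, namely Odc1, Srm (0.44 ± 0.09), Azin1 (0.56 ± 0.09), Oaz2 (0.42 ± 0.07), Gatm and Gamt (0.80 ± 0.11), and Arg2, the mitochondrial arginase, was lower. Of the 2 other probe sets of Oaz2, one was called higher (0.64) and one lay on the other side and was not called (-0.38, adjusted p = 0.0748). The count of lower members was 2 without KO ANG II replicate 2 or WT ANG II replicate 2.

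**Figure D3:**
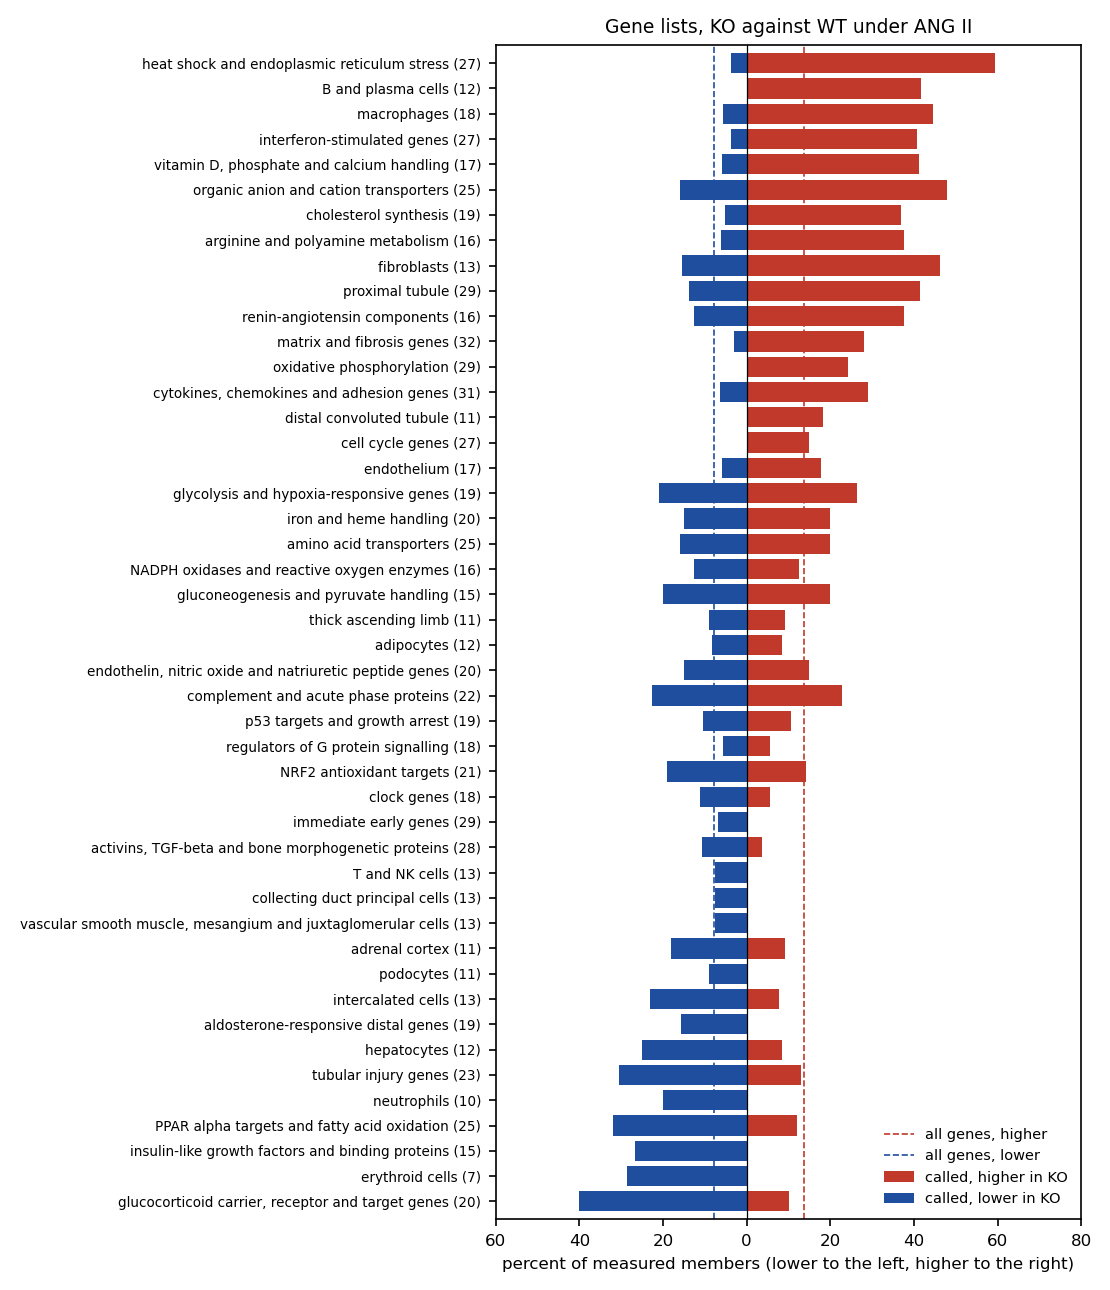
For each of the 46 gene lists, bars give the percent of measured members called higher in KO (red, to the right) and lower in KO (blue, to the left) under ANG II, with the number of measured members in brackets. Dashed lines give the shares over all genes, 13.7% higher and 7.87% lower. Heat shock and endoplasmic reticulum stress genes stand at the top with 59.3% higher, and glucocorticoid genes at the bottom with 40% lower.

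Some markers of macrophages and of B and plasma cells and some matrix genes were higher in KO in infused kidneys, and in uninfused ones as well, while those of T cells, NK cells and neutrophils had no higher member under ANG II. Of 18 measured macrophage markers 8 were higher and 1 lower under ANG II, with a median of 0.53. At baseline, where 6.56% of genes were called, 12 were higher and 0 lower, with a median of 1.08. C1qb, a chain of the complement component C1q, had 1.44, 0.968 and 1.06 in KO ANG II kidneys, against 0.550, 0.718 and 0.631 in WT ANG II kidneys (log2 0.85 ± 0.19, adjusted p = 0.00729). At baseline C1qb had 3.53, 3.19 and 2.15 in KO kidneys, against 1.01, 0.991 and 0.761 in WT kidneys (log2 1.66 ± 0.19, adjusted p = 0.000332). 1 of its 2 other probe sets was not called (0.60, adjusted p = 0.0831). KO kidneys were thus above WT kidneys in both states, and the uninfused KO arrays were the highest of all. The mannose receptor Mrc1 differed by 0.80 ± 0.16 under ANG II and 1.26 ± 0.16 at baseline. Genes of MHC class II, which present antigen, differed as well, H2-Aa by 1.05 ± 0.18 and 1.32 ± 0.18, and Cd74 by 0.75 ± 0.18 and 1.29 ± 0.18. Jchain, the joining chain of secreted antibodies, had 2.68, 1.38 and 2.13 in KO ANG II kidneys, against 0.240, 0.622 and 0.334 in WT ANG II kidneys (log2 2.43 ± 0.31, adjusted p = 0.000181). Jchain at baseline had 6.69, 3.72 and 5.09 in KO kidneys, against 0.481, 0.481 and 0.354 in WT kidneys. Igha, the heavy chain of IgA, behaved alike (log2 2.41 ± 0.23 infused and 3.27 ± 0.23 uninfused), as did the light chain variable gene Igkv8-30 (2.11 ± 0.36 and 3.42 ± 0.36). Markers of T and NK cells were 0 higher and 1 lower of 13 under ANG II, and those of neutrophils were 0 higher and 2 lower of 10. Without 1 array the T and NK cell counts were 0 to 1 higher and 0 to 2 lower, and those of neutrophils 0 to 4 lower. Both had the most lower members without WT ANG II replicate 1 and 0 without KO ANG II replicate 1 or WT ANG II replicate 3. At baseline T and NK cell markers were 2 higher and 0 lower in KO, and neutrophil markers 0 higher and 0 lower. With KO ANG II replicate 1 left out, 4 macrophage markers were called higher in place of 8, and with quantile normalization 5, and the lower one was not called without KO ANG II replicate 1, KO ANG II replicate 2, WT ANG II replicate 2 or WT ANG II replicate 3.

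Matrix genes had 9 of 32 measured members higher and 1 lower under ANG II, and 17 higher and 0 lower at baseline. Their median log2 difference was 0.32 under ANG II and 0.72 at baseline. The difference between both genotype differences was called negative for 6 of them and positive for 1. Col1a2, a chain of type I collagen, had 1.37, 0.952 and 0.967 in KO ANG II kidneys, against 0.370, 0.552 and 0.381 in WT ANG II kidneys (log2 1.34 ± 0.26, adjusted p = 0.00305). The infused groups did not overlap. At baseline the difference of Col1a2 had the same direction, 0.81 ± 0.26, and was not called (adjusted p = 0.0746). Fn1, fibronectin, differed by 1.08 ± 0.25 under ANG II and by 1.16 ± 0.25 at baseline, with a second probe set at 0.39 under ANG II (adjusted p = 0.133, not called), and Tgfbi, a matrix protein induced by TGF-beta, by 0.99 ± 0.17 and 1.56 ± 0.17. Of 2 other probe sets of Col1a2 one was called (1.02) and one was not (-0.02). The lower member was not called without KO ANG II replicate 1, KO ANG II replicate 3 or WT ANG II replicate 3. The count of higher members was 5 without KO ANG II replicate 1, without WT ANG II replicate 1 and with array weights, in place of 9. Fibroblast markers were 6 higher and 2 lower of 13, and 3 higher without KO ANG II replicate 1, without WT ANG II replicate 3, with array weights and with quantile normalization. None was lower without KO ANG II replicate 1, KO ANG II replicate 3, WT ANG II replicate 1 or WT ANG II replicate 3. The chemokine Cxcl14 had 1.34, 0.962 and 1.04 in KO ANG II kidneys, against 0.286, 0.5 and 0.354 in WT ANG II kidneys (log2 1.58 ± 0.33). At baseline Cxcl14 had 3.84, 5.03 and 1.69 in KO kidneys, against 0.811, 1.08 and 0.624 in WT kidneys. The infused WT arrays were the lowest and the uninfused KO arrays the highest for Cxcl14. Ccl28, a chemokine of mucosal epithelium, had another pattern, with 2.59, 2.70 and 3.30 in KO ANG II kidneys, against 0.926, 0.951 and 0.929 in WT ANG II kidneys. Ccl28 at baseline had 1.18, 0.983 and 1.71 in KO kidneys, against 0.768, 0.930 and 1.02 in WT kidneys, so that infused KO arrays stood alone (infused log2 1.61 ± 0.17, adjusted p = 3.47e-05). Among 27 measured interferon-stimulated genes 11 were higher and 1 lower under ANG II, such as Gbp2 (0.83 ± 0.11), Usp18 (0.79 ± 0.13) and Oasl2 (0.92 ± 0.15), and at baseline 13 were higher. Without KO ANG II replicate 1 the first count was 7, and without WT ANG II replicate 3 the lower count was 2.

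**Figure D4:**
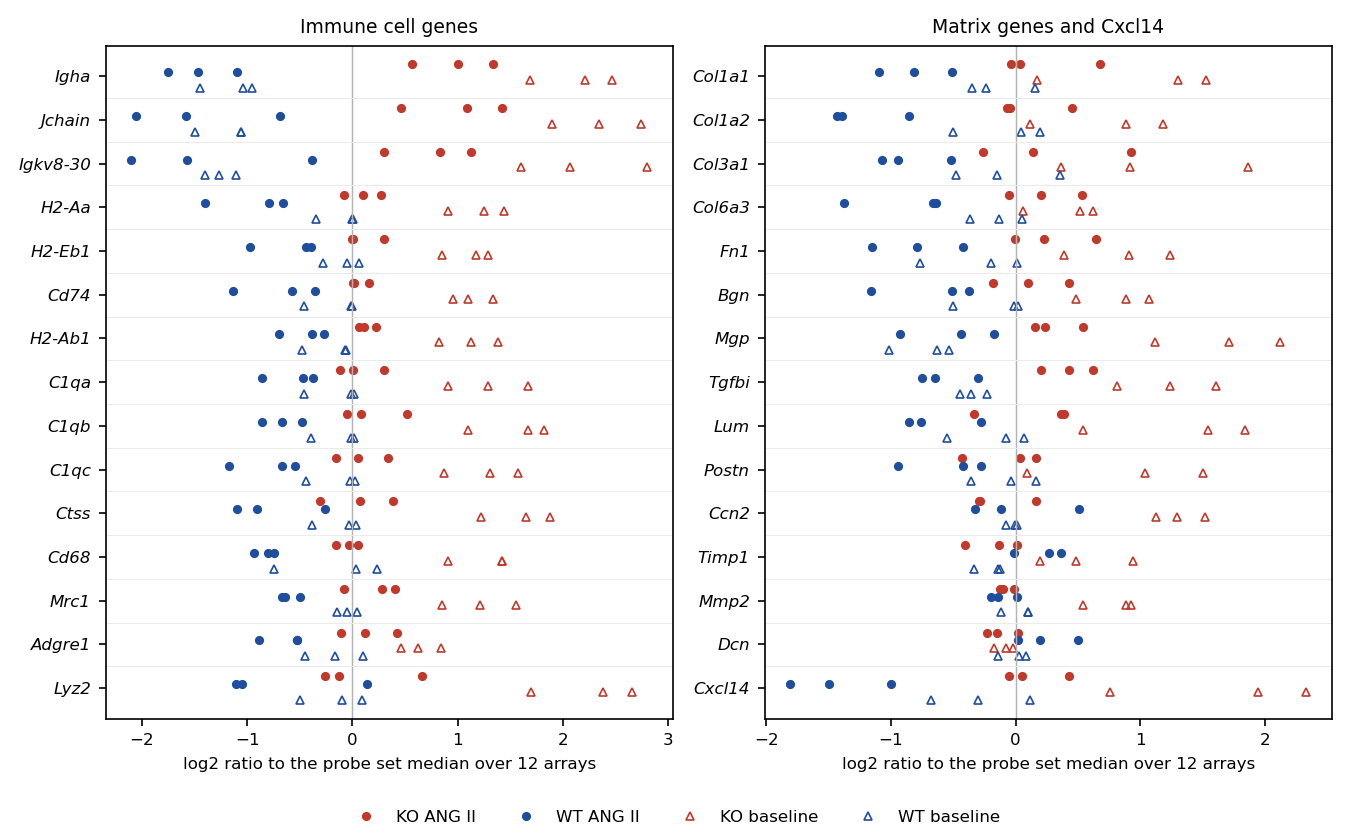
Rows are genes of immune cells on the left and matrix genes with Cxcl14 on the right, and each point is 1 array, with the log2 ratio to the probe set's median over the 12 arrays on the x axis, red for KO and blue for WT, filled circles for infused and open triangles for uninfused kidneys. Uninfused KO triangles lie furthest right for most genes and infused WT circles furthest left, as for Igha and C1qb.

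Infused and uninfused genotype differences come from separate arrays, so they can be set against each other. Over all 45037 probe sets their Pearson correlation was 0.21 and their Spearman correlation 0.25, given as a description because probe sets are not independent. The SD of the log2 differences was 0.301 with infusion and 0.254 without. Genes called in both states in the same direction numbered 243, which is 6.19% of those called under ANG II and 20.4% of those called at baseline, and 175 of the 243 were higher in KO. Another 124 were called in both with opposite signs, 3.16% of the infused and 10.4% of the baseline calls.

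2 genes marked the genotype whatever the treatment. Sugct, a glutarate CoA-transferase, had ratios of 0.155, 0.187 and 0.188 in KO ANG II kidneys, against 2.46, 1.81 and 2.01 in WT ANG II kidneys. At baseline Sugct had 0.179, 0.157 and 0.136 in KO kidneys, against 2.59, 2.04 and 2.62 in WT kidneys. A second probe set of Sugct went the other way under ANG II and was called higher in KO, by 0.63. Gpx6, a glutathione peroxidase, had 0.247, 0.402 and 0.208 in KO ANG II kidneys, against 2.41, 2.13 and 2.26 in WT ANG II kidneys. Gpx6 at baseline had 0.208, 0.219 and 0.196 in KO kidneys, against 1.92, 1.79 and 1.60 in WT kidneys. At the probe sets with these ratios, every KO array was under every WT array for both genes. There the genotype difference did not change detectably with the infusion (Sugct 0.38 ± 0.20, adjusted p = 0.263, and Gpx6 0.04 ± 0.25, adjusted p = 0.941). Both lie on chromosome 13, as Agtr1a does, with 467 and 378 annotated genes between them and Agtr1a. Other alleles linked to the targeted locus and the missing receptor cannot be told apart by this design. The 31 measured genes among the 40 nearest on each side of Agtr1a held 1 that was higher, Dusp22 (0.44 ± 0.09), and 2 that were lower under ANG II, among them the forkhead factor Foxq1 (-1.45 ± 0.24). None of them was called in the same direction in both states. Over the whole chromosome 12 of 705 measured genes were (1.7%, against 1.34% of all genes). Besides the immune, matrix and interferon genes given above, Hpd and Ctxn3 were among the named genes called with 1 sign in both states, Hpd lower (infused -2.38 ± 0.25, baseline -0.91 ± 0.25) and Ctxn3 higher (1.73 ± 0.25 and 1.21 ± 0.25).

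A second set of genes changed sides between the states. Cp had 0.608, 0.672 and 0.533 in KO ANG II kidneys, against 1.84, 1.41 and 2.27 in WT ANG II kidneys. At baseline Cp had 1.82, 1.33 and 1.41 in KO kidneys, against 0.553, 0.650 and 0.414 in WT kidneys. Infused KO and uninfused WT arrays shared the low range and infused WT and uninfused KO arrays the high one, and the difference of the differences was -3.09 ± 0.26 (adjusted p = 2.52e-05). Inhbb, a subunit of activin, had 0.622, 0.667 and 0.768 in KO ANG II kidneys, against 1.53, 1.37 and 1.23 in WT ANG II kidneys. Inhbb at baseline had 2.44, 2.14 and 2.46 in KO kidneys, against 0.621, 0.593 and 0.416 in WT kidneys (difference of the differences -3.13 ± 0.20, adjusted p = 2.54e-06). A second probe set of Inhbb was not called under ANG II. Lcn2 had 0.929, 0.682 and 0.405 in KO ANG II kidneys, against 1.20, 1.07 and 1.28 in WT ANG II kidneys. At baseline Lcn2 had 4.04, 3.07 and 2.18 in KO kidneys, against 0.685, 0.574 and 0.476 in WT kidneys (difference of the differences -3.29 ± 0.37, adjusted p = 0.000147). Its largest ratios were those of uninfused KO kidneys, and its infused call ended without KO ANG II replicate 3 (adjusted p = 0.11) or any 1 WT ANG II array (0.0501 to 0.088). Pdk4 (-1.57 ± 0.33 infused, 1.75 ± 0.33 uninfused), the lipoprotein Apoe (-1.50 ± 0.19 and 0.90 ± 0.19), Arg2 (-1.37 ± 0.20 and 1.46 ± 0.20), Cdkn1a (-0.98 ± 0.21 and 1.28 ± 0.21) and Sgk1 (-0.85 ± 0.11 and 0.89 ± 0.11) had the same signs as Cp. In the other direction stood Car3, lower in uninfused KO kidneys (-1.56 ± 0.17), and Slc34a3, with 1.20, 1.24 and 1.56 in KO ANG II kidneys, against 0.748, 0.796 and 0.741 in WT ANG II kidneys. Slc34a3 at baseline had 0.793, 0.798 and 0.656 in KO kidneys, against 1.49, 1.41 and 1.47 in WT kidneys (difference of the differences 1.76 ± 0.15, adjusted p = 2.6e-05). Dhcr7 (-0.55 ± 0.11), Gatm (-0.52 ± 0.14) and Slc5a2 (-0.44 ± 0.10) were likewise lower in KO without infusion and higher with it. Immediate early genes, which rise within minutes of a stimulus and encode many transcription factors, were 15 higher and 0 lower of 29 in uninfused KO kidneys, against 0 higher and 2 lower, Dusp1 among them, in infused ones. The difference of the differences was called negative for 13 of them. Of the 2 lower ones 1 was called without any 1 infused array other than KO ANG II replicate 2 and WT ANG II replicate 3.

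**Figure D5:**
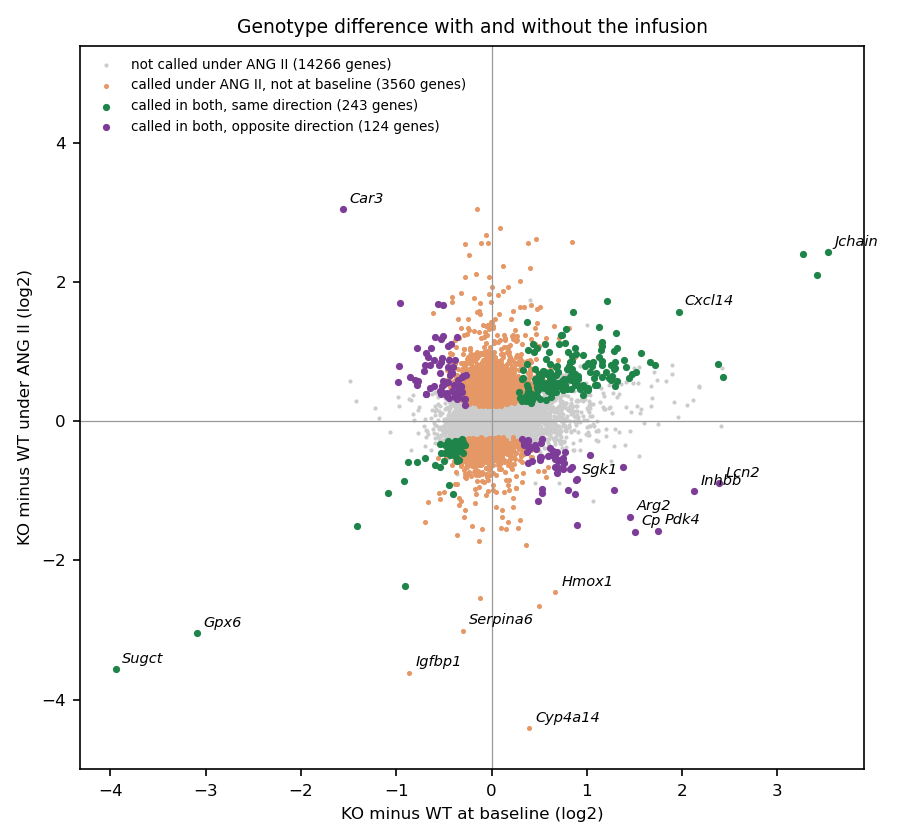
Each point is a gene, with the log2 difference of KO minus WT at baseline on the x axis and under ANG II on the y axis. The 243 green genes were called in both states with 1 sign, Sugct and Gpx6 at the lower left and Igha and Jchain at the upper right, and the 124 purple genes with opposite signs, among them Car3, Cp and Inhbb, while most infused calls lie near 0 on the x axis.

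The remaining lists are read against 13.7% higher and 7.87% lower over all genes. Members called higher were 41.2% for vitamin D, phosphate and calcium handling, 29% for cytokines, chemokines and adhesion genes, and 24.1% for oxidative phosphorylation. Of insulin-like growth factor genes 26.7% were lower. The others gave small or mixed counts. Oxidative phosphorylation had 7 of 29 members higher and 0 lower, with a median of 0.17, led by cytochrome c, Cycs (0.99 ± 0.10). Only 2 were called with the omission of KO ANG II replicate 1 or KO ANG II replicate 3, 3 without WT ANG II replicate 3 and 1 in the fit to the 6 infused arrays. Vitamin D, phosphate and calcium handling had 7 of 17 higher and 1 lower, with Kl, a co-receptor of a phosphate-lowering hormone, at 0.41 ± 0.09 (0.34 and not called at a second probe set) and the scaffold Pdzk1 at 0.58 ± 0.08. Leaving out WT ANG II replicate 2 gave 3 higher ones, and 4 were left without any 1 of KO ANG II replicate 1, KO ANG II replicate 3 and WT ANG II replicate 3. The lower count was 2 without KO ANG II replicate 2 or WT ANG II replicate 1. Insulin-like growth factor genes had 4 of 15 lower, led by Igfbp1, and 0 higher. The lower count was 1 when KO ANG II replicate 3 was left out and 2 with KO ANG II replicate 1 left out. The higher count was 1 without KO ANG II replicate 3 or WT ANG II replicate 2. Cytokines, chemokines and adhesion genes had 9 of 31 called higher, but a median of -0.05, and 15 members had a difference above 0. The 2 called lower were Tnf (-0.56 ± 0.13) and the inhibitor of NF-kappa B, Nfkbia (-0.50 ± 0.10, with 2 of 4 other probe sets not called). Without WT ANG II replicate 1, 5 members of this list were lower. Cell cycle genes had 4 of 27 higher and 0 lower, and 1 lower without WT ANG II replicate 1. Genes of the circadian clock had 1 of 18 higher and 2 lower, but 0 and 0 without KO ANG II replicate 3, WT ANG II replicate 2 or WT ANG II replicate 3 and with quantile normalization, and 2 and 1 without KO ANG II replicate 1. Among 28 genes of the activin and TGF-beta family, 1 was higher and 3 lower. The higher count was 3 without WT ANG II replicate 1 and 0 without any 1 KO ANG II array or WT ANG II replicate 3, and the lower count was 1 without KO ANG II replicate 1, KO ANG II replicate 2 or WT ANG II replicate 2. Endothelin, nitric oxide and natriuretic peptide genes had 3 of 20 on either side, and the lower count was 1 without KO ANG II replicate 1, KO ANG II replicate 2 or WT ANG II replicate 3. Regulators of G protein signalling, proteins that end the signal of receptors such as AT1, had 1 of 18 on either side, 0 higher without KO ANG II replicate 1 or WT ANG II replicate 3, and at baseline 5 higher and 0 lower. Markers of podocytes, principal cells, and vascular smooth muscle with mesangium and juxtaglomerular cells each had 0 higher and 1 lower, of 11, 13 and 13 measured. With 1 infused array left out, these counts were 0 to 2 lower for podocytes, 0 to 1 higher for principal cells, and 0 to 1 higher and 0 to 2 lower for the vascular list. Those of the thick ascending limb had 1 of 11 on either side (2 higher without KO ANG II replicate 3) and those of the endothelium 3 of 17 higher and 1 lower (2 lower without WT ANG II replicate 2). Adrenal cortex markers, which would show adjacent tissue, had 1 of 11 higher and 2 lower. The lower count was 0 without KO ANG II replicate 1, KO ANG II replicate 3 or WT ANG II replicate 3, in the fit to the 6 infused arrays and with quantile normalization, 1 without WT ANG II replicate 2 and 4 without WT ANG II replicate 1. Their median log2 ratio was -0.01 to 0.03 on KO ANG II arrays, against 0.08 to 0.30 on WT ANG II arrays.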

How the data were processed

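Kidney RNA of 12 mice was measured on 1 Affymetrix array each, 3 per group. RMA processing was named in the submitters' processing notes. The deposited values are ratios on a linear scale, and from the values each is the array's signal over the probe set's median over the 12 arrays (median within 0.002 of 1 for 45099 of 45101 probe sets), a division that is not stated in the sources used here. Log2 of the ratio was analysed, without 64 control probe sets. The model, 4 group means over the 12 arrays, was fitted with limma 3.58.1 under R 4.3.3 (8 residual and 5.83 prior degrees of freedom), with two-sided tests, Benjamini-Hochberg adjustment over 45037 probe sets and a call at an adjusted p under 0.05. Errors after ± are moderated standard errors. Of the probe sets 34945 carried 1 gene symbol, 932 several and 9160 none. A gene is represented by its plainest-named probe set (_at before _a_at, _s_at and _x_at, then the lowest number). Each array is 1 mouse.

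The members, the 46 gene lists (29 of pathways, 17 of cell types) and the tests were chosen with earlier results of these data known. Named were the receptor and renin-angiotensin genes, the 15 largest rises and falls among called genes with non-overlapping groups, up to 4 called members of a list (others were chosen after their values were seen), called neighbours of Agtr1a, and genes called in both states. Alternatives were the 6 infused arrays alone, quantile normalization, median centring, robust and trended moderation, array weights, a replicate block, a filter on low SD, gene-level fits and each infused array left out. The procedure was tested on simulated data. Promoter windows are those of RefSeq on GRCm38.p6. The number of arrays limits the precision.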

Additional observations from a re-analysis of the deposited data

Results flagged for a closer look

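The genes below were noted because the genotype difference itself differed between infused and uninfused kidneys, by the test of that difference in the fit to all 12 arrays (limma, adjusted p under 0.05 over 45037 probe sets, called for 9.78% of them). Each value is the log2 difference of KO minus WT under ANG II less that at baseline, with 3 arrays in each of the 4 groups. A negative sum can come from a fall under ANG II or a rise at baseline, and the report gives both parts for the genes it describes in full. Among genes of solute transport, KO minus WT was more positive under ANG II than at baseline, by a log2 of 2.17 for Slc22a7, 2.27 for Slc22a30, 0.82 for Slc22a6, 1.03 for Slc22a2, 2.68 for Slco1a1, 2.60 for Slc51a and 2.63 for Slc7a13. Further ones of the kind were 1.05 for Slc17a3, 1.76 for Slc34a3, 1.10 for Slc5a2, 0.60 for Pdzk1, 2.82 for Mfsd2a and 1.18 for Cd36. It was more negative for the transporters Slc13a1 (-1.39), Aqp1 (-0.64), Scnn1a (-0.56), Abca1 (-1.46), Abcb1a (-1.48), Abcb1b (-1.27) and Abcc4 (-1.05). In lipid, amino acid and energy metabolism the positive values were Acsm3 (2.69), Ces1g (1.73), Cyp4a12a (1.42), Idi1 (2.20), Dhcr7 (1.37), Mvd (0.98) and Cycs (1.14). Further ones of the kind were Gatm (1.43), Gamt (0.77), Odc1 (2.73), Azin1 (0.54), Oaz2 (0.37), Srm (0.43) and Car3 (4.61). The negative ones there were Cyp4a14 (-4.80), Ppara (-0.77), Vnn1 (-0.41) and Pdk4 (-3.32). Further ones of the kind were Kynu (-2.41), Hpd (-1.47), Arg2 (-2.83), Apoe (-2.40) and Sult1a1 (-1.37). The chaperones noted here were positive, with Dnaja1 (0.68), Dnajb1 (0.72), Hsp90aa1 (0.66), Hspd1 (0.47), Hspe1 (0.75), Pdia3 (0.44) and Pdia6 (0.71). Of 27 measured heat shock and endoplasmic reticulum stress genes, this difference was called positive for 7 and negative for 1. Hspa8, Hsph1, Creld2 and Hspa5 are not among the genes noted here. Genes of stress, iron, injury and growth control had negative values for Hmox1 (-3.13), Cp (-3.09), Lcn2 (-3.29), Gsta2 (-1.60), Cdkn1a (-2.26), Sgk1 (-1.73), Per1 (-1.27), Dusp1 (-1.42) and Depp1 (-3.15). Further ones of the kind were Serpina6 (-2.71), Fga (-1.70), Serpina1b (-1.79), Igfbp1 (-2.75), Inhbb (-3.13), Nfkbia (-1.16), Foxq1 (-1.61), Vcam1 (-0.81) and 2410006H16Rik (-2.14). Positive values in the remaining genes were Ace (0.97), Anpep (0.82), Nln (0.74), Agtr1a (0.49), Nr3c1 (0.66), Hsd11b1 (0.77), Tfrc (1.66) and Steap1 (0.97). Further ones of the kind were Ttr (1.48), Kl (0.77), Ccl28 (1.13), Myo5a (2.11), Rnf180 (2.15), Rnf24 (1.80) and 3110040M04Rik (3.20).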

How the results depend on the processing

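Of 120 named genes, 102 kept direction and side of the threshold in every alternative. Called probe sets in KO against WT under ANG II numbered 4991 in the fit to the 6 infused arrays, 4063 with quantile normalization, 4224 with 1 probe set per gene, 4651 with probe sets averaged by gene (fewer features are tested in both), and 5021 to 10743 with 1 infused array left out, against 8934 as reported. At 2-fold or more they were 260 with quantile normalization (64.6% higher in KO, against 76.5%), 199 and 178 in the gene-level fits and 396 to 503 with 1 array left out. For KO against WT at baseline the counts were 4849 with array weights, 1247 and 1469 at gene level, and 2651 to 3329 with 1 infused array left out. For the difference between the genotype differences they were 2867 with quantile normalization, 1970 and 2361 at gene level, and 2484 to 5104 with 1 array left out. Other causes of these shifts were not tested.

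Agtr1a, not called in any alternative, was 0.009 with arrays centred on a median of 0, 0.00 with array weights and -0.054 to 0.047 with 1 array left out. Calls also ended with quantile normalization for Agt, Mas1, Hspa8, Pdia3, Calr, Hsp90b1, Per1, Aco1 and Azin1 (adjusted p = 0.0507 to 0.139), and in the fit to the 6 infused arrays for Acot2, Hsp90b1 and Per1 (0.0521 to 0.0738).

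Same-numbered KO ANG II and WT ANG II arrays deviated from their group means with correlations of 0.0638, 0.0105 and -0.0903, so the replicate numbers were not taken to pair the samples. With the replicate block 7544 probe sets were called under ANG II, 431 at 2-fold or more, 2245 at baseline and 3157 for the difference, and the calls of Hsp90b1 (0.061) and Per1 (0.0564) ended. Ratios keep no signal over background, so dim probe sets could not be set aside.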

Other observations

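Several lists not described above had a larger called share under ANG II than the 21.6% of all genes. It was 47% for glycolysis and hypoxia-responsive genes and 45% for complement and acute phase proteins. For gluconeogenesis and pyruvate handling it was 40%, and for amino acid transporters 36%. The called share of p53 targets, 21%, was not larger but near that of all genes. Amino acid transporters had 5 of 25 measured members higher and 4 lower in KO, glycolysis and hypoxia-responsive genes 5 and 4 of 19, gluconeogenesis and pyruvate handling 3 and 3 of 15, p53 targets 2 and 2 of 19, and complement and acute phase proteins 5 and 5 of 22, against 13.7% and 7.87% of all genes. With 1 infused array left out, amino acid transporters had 2 lower without KO ANG II replicate 1 or KO ANG II replicate 2, glycolysis and hypoxia-responsive genes had 3 higher without KO ANG II replicate 3 or WT ANG II replicate 2 and 2 lower without KO ANG II replicate 3, and p53 targets had 4 higher without KO ANG II replicate 2 or WT ANG II replicate 1. The 5 higher complement genes included the 3 chains of C1q, and the 5 lower ones the 3 chains of fibrinogen. Markers of B and plasma cells were 5 higher and 0 lower of 12, those of the distal convoluted tubule 2 higher and 0 lower of 11, and those of intercalated cells 1 higher and 3 lower of 13. Erythroid markers were 0 higher and 2 lower of 7, and adipocyte markers 1 higher, Car3, and 1 lower of 12. With 1 infused array left out, the counts were 0 to 2 lower for B and plasma cells (2 without KO ANG II replicate 2, 1 without WT ANG II replicate 1), 1 higher for the distal convoluted tubule without KO ANG II replicate 1, KO ANG II replicate 3, WT ANG II replicate 2 or WT ANG II replicate 3, and for adipocytes 2 higher without WT ANG II replicate 3, 4 lower without WT ANG II replicate 1 and 2 lower without WT ANG II replicate 2.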
